A study of Mus musculus with 40 samples.

Results

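The genes described here are 10 genes of the p53 response and of the mitochondrial and receptor routes to apoptosis: Cdkn1a, Mdm2, Ccng1, Bax, Bbc3, Fas, Trp53inp1, Sesn2, Bcl2l11 and Bcl2. They were chosen by name, and every probe row of the non-normalized array table whose gene symbol is one of the 10 was taken, which gave 26 of 25697 probes and 10 of 17914 genes. Bax has 1 probe and the other 9 genes have up to 4. Of the 26 probes, 12 were detected on all 40 arrays (detection p under 0.01) and 6 on 0 arrays. Each gene is represented below by its brightest detected probe unless another is named; the choice of probe matters, since the probes of several members disagree in sign.

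RNA of mouse bone was hybridised to 40 arrays on 5 Illumina BeadChips, slides of 8 arrays read in a single colour. All mice were C57BL/6 females of 15 weeks. They were ovariectomized, which all groups share, and 1 week later received 17β-estradiol (E2) at 115 µg/kg or olive oil (vehicle) under the skin, and RNA was taken 18 h later. The labels give 8 groups of 5 arrays: trabecular bone (vertebral bodies L5 and L6) of mice with a deletion of activation function 1 of estrogen receptor alpha (AF-1 KO) given E2 or vehicle, trabecular bone of wild type (WT) given E2 or vehicle, and cortical bone (flushed long bone shafts) of the same 4 kinds of mice. The deletion is labelled as a property of the whole mouse and names no Cre driver. AF-1 is the N-terminal transactivation region of the receptor, and no group lacks the whole receptor. The shafts are given as femora and tibiae in the protocol and as femur in the sample characteristics. Nothing in the labels says that the 5 arrays of a group are separate animals, or that each mouse gave both bones. The p-values therefore reflect array-to-array spread within a group, and some of that spread may be technical.

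As background, p53 (Trp53) is a transcription factor that DNA damage, hypoxia and other stresses stabilise, and its targets stop the cell cycle, repair DNA or start apoptosis. Cdkn1a (p21) halts cyclin-dependent kinases, Mdm2 is the ubiquitin ligase that returns p53 to a low level, and Bax, Bbc3 (PUMA) and Fas belong to the death machinery that p53 can induce. Bcl2 guards the outer mitochondrial membrane and Bcl2l11 (BIM) opposes it. Cdkn1a is also controlled by many signals other than p53, among them differentiation signals and steroid hormones, and estrogen is known to affect the survival of osteoblasts, osteocytes and osteoclasts.

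The best known of these links is a p53 site in DNA, a pair of adjacent half-sites of 10 bases each. The RefSeq promoter table (build GRCm38.p6) holds windows for 9 of the 10 genes, 13 windows in all, and the 250 bases before each start were searched on both strands. Sites of 20 bases with at most 1 letter off the p53 consensus lay in the windows of Cdkn1a and Ccng1. These 2 windows are printed because they carry the site, in capitals, and because both genes are among those that differ between the bones below. In Cdkn1a it lies at −51 to −32 before the first of its annotated starts, in chr17:29090729-29090978 on the + strand, and in Ccng1 at −195 to −176, in chr11:40755287-40755536 on the − strand.
Cdkn1a: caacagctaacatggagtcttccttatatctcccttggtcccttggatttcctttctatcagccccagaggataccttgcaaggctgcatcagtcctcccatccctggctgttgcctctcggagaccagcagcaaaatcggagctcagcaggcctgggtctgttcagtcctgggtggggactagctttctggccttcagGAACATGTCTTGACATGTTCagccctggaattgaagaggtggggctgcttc
Ccng1: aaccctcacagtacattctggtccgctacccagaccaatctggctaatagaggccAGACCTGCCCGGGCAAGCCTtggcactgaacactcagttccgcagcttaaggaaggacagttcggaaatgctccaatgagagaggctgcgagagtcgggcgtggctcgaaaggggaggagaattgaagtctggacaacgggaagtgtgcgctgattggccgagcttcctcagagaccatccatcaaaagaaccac
Such a site was found in 25 of 32851 windows of this length (0.0761%), and one that matches every letter in 3 windows (0.00913%), none of a member. The allowance of 1 letter was set after the Cdkn1a window had been read, so the matches are a description. An estrogen response element, GGTCANNNTGACC, was found in 0 of the 13 windows and in 21 of all 32851 (0.0639%). A GC box, GGGCGG on either strand, was found in 11 of the 13, belonging to 8 genes, against 32.7% of all windows, and in neither window printed above, so no motif overlapped a p53 site. A window without a match says only that these letters are not in it.

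Values are log2 intensities after background correction and quantile normalization, and differences are in log2 units with the standard error of the limma fit. A gene is said to rise or fall only when its adjusted p was under 0.05 (limma, Benjamini-Hochberg adjustment over all genes tested). In bulk samples, fewer cells of a type and less RNA per cell cannot be told apart. In trabecular bone the 4 arrays of BeadChip 1 detected 8052 to 9218 probes, fewer than the 10357 to 11203 on the other 16 arrays, so results are also given without BeadChip 1. In cortical bone the ranges were 9880 to 11435 and 10324 to 11691. Osteoblast markers were detected in both bones, 7 of 8 on all 20 arrays of each, whereas the osteocyte markers Sost and Fgf23 were detected on 0 trabecular arrays and Fgf23 on 0 cortical arrays. All 9 skeletal muscle markers were detected on all 40 arrays. Esr1, the gene that carries the deletion, averaged 7.66 ± 0.23 in trabecular AF-1 KO and 7.73 ± 0.09 in trabecular WT (SD, n = 5 each, vehicle), and 8.35 ± 0.64 and 8.21 ± 0.45 in the same order in cortical bone. Where its probe lies relative to the deletion is not known here, so these levels check nothing.

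By each gene's brightest probe, and leaving out Sesn2, which was near background, Cdkn1a had the largest E2 difference in all 4 combinations of bone and genotype. It kept that place in 30 of 30 alternatives in WT of each bone, in 27 of 30 in trabecular AF-1 KO and in 28 of 30 in cortical AF-1 KO. Some alternatives cannot change the size of a difference, such as the thresholds, the empirical Bayes options and the BeadChip as a block. These counts therefore overstate how far the place was tested. The cyclin-dependent kinase inhibitor was higher with E2 on 18 of 20 pairs of arrays from the same BeadChip, bone and genotype. No single one of the 4 comparisons passed the threshold. An average over both bones and both genotypes was added after the values had been seen. In it Cdkn1a rose by 0.64 ± 0.13 on the log2 scale, a 1.56-fold higher level. None of the other 9 genes passed in any E2 comparison.

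In trabecular AF-1 KO bone Cdkn1a was 9.80, 9.94, 9.87, 9.53 and 10.15 on BeadChips 1 to 5 with E2, against 10.21, 9.07, 9.49, 8.96 and 9.50 with vehicle. The vehicle array of BeadChip 1 lay above every E2 array of that group, and the other 4 vehicle arrays lay below all of them. In trabecular WT bone the levels were 10.12, 10.14, 9.87, 10.03 and 10.28 with E2, against 9.53, 9.13, 9.37, 9.06 and 9.93 with vehicle. Here every BeadChip had the higher value with E2, and the groups overlapped through the vehicle array of BeadChip 5 alone.

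In cortical AF-1 KO bone Cdkn1a was 11.65, 11.09, 10.90, 10.43 and 12.39 with E2, against 10.75, 10.76, 10.41, 10.62 and 11.00 with vehicle. The E2 arrays were widely spread, and that of BeadChip 4 was the only one below its vehicle partner. In cortical WT bone it was 11.50, 11.79, 11.91, 10.93 and 12.27 with E2, against 10.62, 10.55, 10.62, 10.88 and 11.37 with vehicle. Every BeadChip again had the higher value with E2, although on BeadChip 4 the margin was 0.05.

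**Figure D1:**
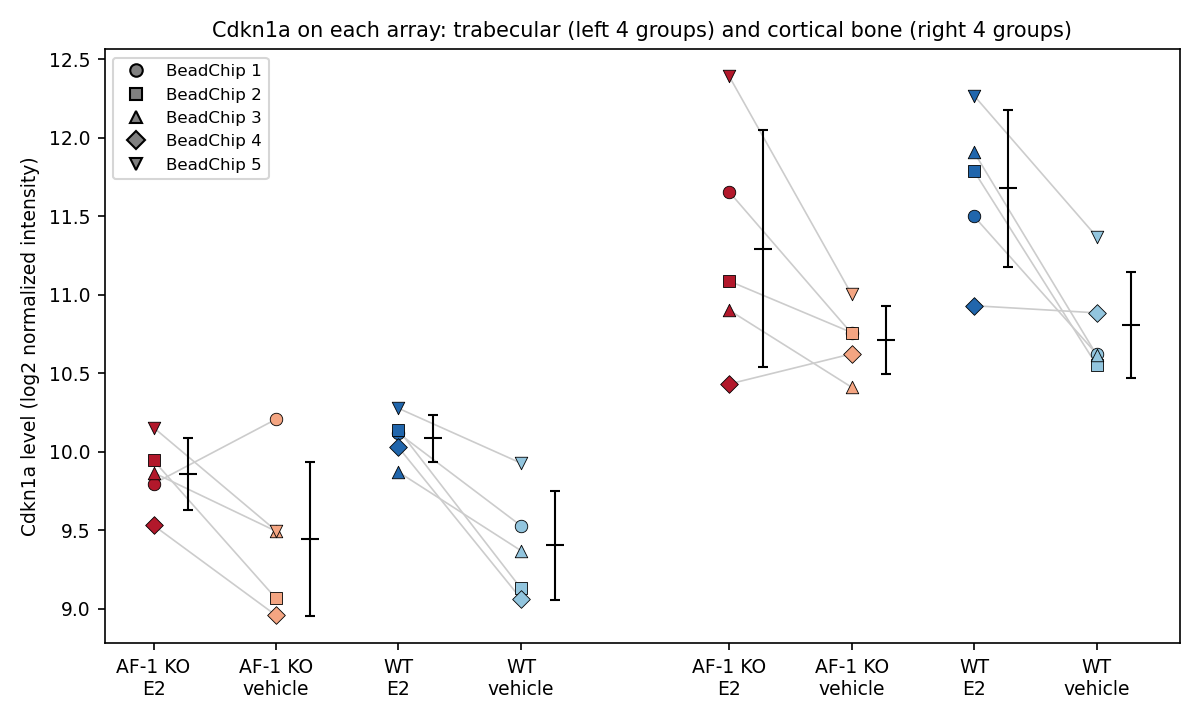
Cdkn1a level (log2 normalized intensity) on each of 40 arrays, by bone, genotype and treatment. Symbols mark the BeadChip, grey lines join the E2 and vehicle arrays of a BeadChip, and bars give the mean ± SD of 5 arrays. E2 arrays lie above their vehicle partners in 18 of 20 pairs, and every trabecular array (highest 10.28) lies below every cortical array (lowest 10.41).

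The fitted E2 differences were 0.41 ± 0.21 in trabecular AF-1 KO (95% interval −0.02 to 0.85, adjusted p = 0.964, limma) and 0.68 ± 0.21 in trabecular WT (0.25 to 1.11, adjusted p = 0.40, limma). In cortical bone they were 0.58 ± 0.29 in AF-1 KO (−0.03 to 1.20, adjusted p = 0.999, limma) and 0.87 ± 0.29 in WT (0.25 to 1.48, adjusted p = 0.833, limma). Both WT intervals lie above 0, with unadjusted p of 0.00354 in trabecular and 0.00794 in cortical bone, yet neither passed across all genes. The cortical AF-1 KO difference rested largely on the E2 array of BeadChip 5 (12.39): without that array it was 0.31 for Cdkn1a, beside 0.32 for Bbc3 and −0.35 for Bcl2l11, and with array weights it was 0.22. Without BeadChip 1 the differences of Cdkn1a were 0.62 in trabecular AF-1 KO and 0.71 in trabecular WT, and the WT comparison passed when BeadChip 1 was left out and the BeadChip was also a block (adjusted p = 0.0370, limma).

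Over the 20 trabecular and 20 cortical arrays together, the mean E2 difference of Cdkn1a was 0.64 ± 0.13 (95% interval 0.37 to 0.90, adjusted p = 0.00735, limma). This average was added after the values had been seen. Its fit took the 40 arrays as independent, so its error does not allow for mice that may have given both bones. The difference was positive on 5 of 5 BeadChips, with 0.49, 0.86, 0.66, 0.35 and 0.82. In this comparison 1 of 10 members was called, and 44 of 9451 genes were called in all (0.466%), 37 higher and 7 lower. The call held in 56 of 58 alternatives and was lost without BeadChip 2 (0.58, adjusted p = 0.207, limma) and without BeadChip 3 (0.63, adjusted p = 0.105, limma). Its other 2 probes gave means of 0.48 ± 0.17 and 0.64 ± 0.19, not called over all probes (adjusted p = 0.276 and 0.160, limma).

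The 3 probes of Cdkn1a were also read separately. In cortical bone all 3 probes had positive E2 differences, 0.58, 0.53 and 0.61 in AF-1 KO and 0.87, 1.04 and 1.03 in WT for ILMN_2634083, ILMN_2846775 and ILMN_2846776. For ILMN_2846775 the 5 E2 and 5 vehicle arrays of cortical WT did not overlap, but the difference of 1.04 ± 0.24 had an adjusted p of 0.133 over all probes (limma). The share of all probes without overlap there is not given here. In trabecular bone the probes disagreed. In the order above they gave 0.41, −0.22 and 0.87 in AF-1 KO and 0.68, 0.58 and 0.04 in WT, and the dimmer pair was detected on 17 and 15 of the 20 trabecular arrays.

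Marker genes of other cells were read in the same comparisons, and no marker was called in any E2 comparison within a bone. The counts of markers higher with E2 are a description and were not tested against all genes. In trabecular bone all 9 skeletal muscle markers were higher with E2 in both genotypes, with medians of 0.50 in AF-1 KO and 0.62 in WT and 0 markers called. Their mean log2 level per array ran from 11.83 to 12.36 with E2 and from 10.58 to 12.10 with vehicle in trabecular AF-1 KO, and from 10.95 to 12.40 with E2 and from 10.55 to 11.71 with vehicle in trabecular WT. Of the osteoblast markers, 6 of 7 tested were higher with E2 in trabecular WT (median 0.40, 0 called). The mean level over 8 osteoblast markers, of which Postn was detected on 0 trabecular arrays, did not overlap there. It ran from 11.93 to 12.14 with E2 and from 11.58 to 11.82 with vehicle. The share of all genes without overlap is not given here. The cartilage markers had the widest medians and went opposite ways in trabecular bone: 4 of 4 tested were higher with E2 in AF-1 KO (median 0.69) and 0 of 4 in WT (median −0.95), with 0 called. Their mean level, over 6 markers of which 2 (Matn3 and Col9a1) were detected on 0 arrays, ran from 7.61 to 8.26 with E2 and from 7.15 to 7.80 with vehicle in trabecular AF-1 KO, and from 6.01 to 8.12 with E2 and from 7.28 to 8.30 with vehicle in trabecular WT. Of the B lineage markers 0 of 6 (median −0.27), and of the T and NK cell markers 0 of 7 (median −0.13), were higher with E2 in cortical AF-1 KO, again with 0 called. In cortical bone 7 of 9 muscle markers were higher with E2 in AF-1 KO (median 0.08) and 3 of 9 in WT (median −0.08). In cortical WT 4 of 5 osteocyte markers (median 0.28) and 8 of 8 erythroid markers (0.13) were higher with E2. There 2 of 8 neutrophil markers (−0.07) and 1 of 4 osteoclast markers (−0.04) were higher, with 0 called in each list. Averaged over bones and genotypes 9 of 9 muscle markers (median 0.28, 0 called) and 6 of 7 osteoblast markers (median 0.05, 1 called) were higher with E2. So were 4 of 5 osteocyte (0.25), 4 of 4 osteoclast (0.12), 7 of 8 erythroid (0.13), 3 of 4 adipocyte (0.19) and 3 of 5 endothelial markers (0.12). Fewer were higher among B lineage (2 of 7, −0.10), T and NK (3 of 7, −0.01), neutrophil (3 of 8, −0.03) and cartilage markers (1 of 4, −0.10). The part of these cell types in the Cdkn1a difference was not tested.

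The number of genes that passed in each E2 comparison sets the background for the members. In trabecular bone 0 of 9 tested members were called with E2 in AF-1 KO, where 1 of 8693 genes passed (0.0115%), and 0 of 9 in WT, where 18 passed (0.207%). In cortical bone it was 0 of 10 in AF-1 KO, where 0% of 9096 genes were called, and 0 of 10 in WT, where 13 were (0.143%). At an unadjusted p under 0.05 the counts over all genes were 362, 589, 318 and 285 in that order, and the members had 0, 1, 1 and 2. The 1 member in cortical AF-1 KO was Sesn2, near background, which also enters the members' cortical medians. The members' median E2 difference was 0.08, 0.13, 0.19 and −0.03, beside medians over all genes of −0.0050, −0.0077, −0.018 and −0.0025. Other than Cdkn1a, the members' differences ran from −0.32 to 0.58, as the plot of E2 differences shows.

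**Figure D2:**
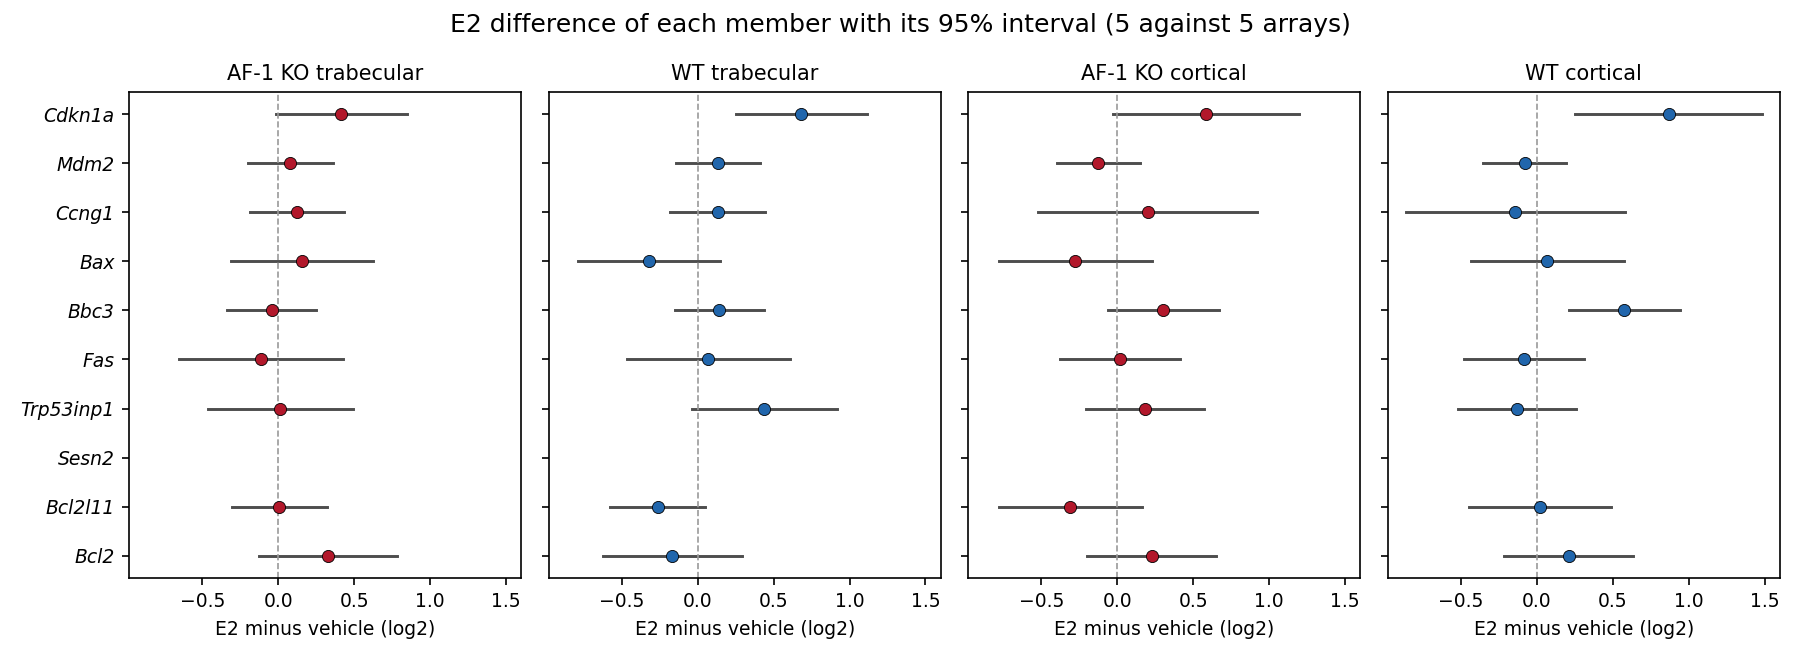
E2 minus vehicle difference (log2) of each member in 4 panels, one for each genotype and bone, with the 95% interval of the limma fit (5 against 5 arrays). Cdkn1a lies right of 0 in all 4 panels, at 0.41 to 0.87, the interval of Bbc3 lies above 0 in cortical WT (0.21 to 0.94), and the other intervals drawn for the remaining members cover 0. The Mdm2 probe in the cortical panels is not the one in the trabecular panels. Sesn2 is not drawn because it was near background.

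No probe of Mdm2 or Ccng1, the feedback arm of the pathway, had a called E2 difference. Mdm2 is the ligase that marks p53 for degradation, and its brightest trabecular probe gave 11.37, 11.22, 11.15, 11.14 and 11.33 with E2, against 11.33, 11.15, 11.03, 11.14 and 11.15 with vehicle in AF-1 KO. In trabecular WT it was 11.64, 11.22, 11.03, 10.96 and 11.23 with E2, against 10.96, 11.10, 11.06, 10.94 and 11.35 with vehicle. The E2 differences were 0.08 ± 0.13 in AF-1 KO and 0.14 ± 0.13 in WT, where it was −0.0033 without BeadChip 1. In cortical bone another probe, ILMN_1250774, was the brighter one. In cortical AF-1 KO it was 10.99, 11.07, 11.06, 10.89 and 11.40 with E2, against 11.17, 11.10, 11.42, 11.17 and 11.17 with vehicle, and in cortical WT 10.86, 10.98, 11.17, 11.07 and 11.36 with E2, against 11.40, 11.02, 11.24, 10.99 and 11.21 with vehicle. All these groups overlapped. The E2 differences there were −0.12 ± 0.13 in AF-1 KO and −0.08 ± 0.13 in WT, with neither called by limma. In trabecular bone that probe gave 0.23 ± 0.28 in AF-1 KO and 0.27 ± 0.28 in WT, with its lowest arrays, 9.37 in AF-1 KO and 9.90 in WT, both on BeadChip 1 with vehicle.

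Ccng1, cyclin G1, which recruits a phosphatase to Mdm2, varied far more among cortical than among trabecular arrays. In cortical AF-1 KO it was 12.64, 11.60, 11.12, 11.23 and 12.40 with E2, against 10.96, 11.86, 12.07, 11.62 and 11.49 with vehicle. In cortical WT it was 12.52, 11.84, 11.28, 10.73 and 10.76 with E2, against 11.23, 11.31, 11.31, 12.18 and 11.80 with vehicle. The sign differed between BeadChips in both genotypes, and the E2 differences were 0.20 ± 0.35 in AF-1 KO and −0.14 ± 0.35 in WT. Trabecular SDs were 0.10 to 0.29 and cortical SDs 0.41 to 0.76. In trabecular AF-1 KO it was 10.96, 10.53, 10.96, 10.51 and 10.67 with E2, against 10.84, 10.55, 10.47, 10.76 and 10.41 with vehicle. In trabecular WT it was 10.77, 10.64, 10.57, 10.65 and 10.51 with E2, against 10.34, 10.40, 11.01, 10.32 and 10.40 with vehicle, where the array of BeadChip 3 stood above all others of both groups. The E2 differences were 0.12 ± 0.15 in AF-1 KO and 0.13 ± 0.15 in WT. The average over all groups was 0.08 ± 0.14, and −0.12 without BeadChip 1. Without that slide the cortical values were −0.17 in AF-1 KO and −0.50 in WT. The other detected probes disagreed with it in places. ILMN_2710229, detected on all 40 arrays, gave 0.56 ± 0.34 in cortical AF-1 KO and 0.28 ± 0.34 in cortical WT, and −0.10 ± 0.20 and 0.35 ± 0.20 in trabecular AF-1 KO and WT. ILMN_2702233, detected on 37 arrays, gave 0.37 ± 0.29 in cortical AF-1 KO, 0.17 ± 0.29 in cortical WT, −0.02 ± 0.34 in trabecular AF-1 KO and 0.59 ± 0.34 in trabecular WT.

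Of the 3 members that promote death at the mitochondrion, Bbc3 had the largest E2 difference. PUMA, its product, is a BH3-only protein that frees Bax and Bak. In cortical AF-1 KO bone Bbc3 was 8.91, 8.48, 8.16, 8.10 and 8.34 with E2, against 7.78, 8.16, 8.36, 8.23 and 7.97 with vehicle. In cortical WT bone it was 8.31, 8.69, 8.98, 8.64 and 9.11 with E2, against 8.34, 8.30, 8.22, 8.01 and 7.97 with vehicle. In WT only the E2 array of BeadChip 1 lay within the vehicle range, while in AF-1 KO the groups overlapped broadly. The E2 differences were 0.30 ± 0.17 in cortical AF-1 KO and 0.58 ± 0.17 in cortical WT (unadjusted p = 0.00366, adjusted p = 0.520, limma), and without BeadChip 1 they were 0.09 in cortical AF-1 KO and 0.73 in cortical WT (adjusted p = 0.209, limma). In trabecular AF-1 KO it was 7.91, 8.62, 8.30, 7.99 and 8.47 with E2, against 8.23, 8.58, 8.20, 8.28 and 8.20 with vehicle, a difference of −0.04 ± 0.14. In trabecular WT it was 8.38, 8.34, 8.47, 8.58 and 8.46 with E2, against 8.33, 8.16, 8.49, 8.16 and 8.37 with vehicle, a difference of 0.14 ± 0.14, and both pairs of groups overlapped. The mean over all groups was 0.24 ± 0.08, positive on 5 of 5 BeadChips and not called (adjusted p = 0.213, limma). The 2 other Bbc3 probes were detected on 8 and 0 of 40 arrays.

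Bax, which forms the pore in the mitochondrial membrane, had the most negative E2 difference of the members. In trabecular WT it was 8.65, 9.11, 9.76, 9.79 and 9.33 with E2, against 9.65, 9.61, 9.53, 9.64 and 9.82 with vehicle. The E2 arrays were scattered over and below a tight vehicle group, and the difference was −0.32 ± 0.22 (adjusted p = 0.807, limma), or −0.15 without BeadChip 1. In cortical AF-1 KO it was 9.47, 9.88, 9.41, 9.81 and 9.76 with E2, against 9.69, 10.03, 9.95, 9.84 and 10.20 with vehicle. All 5 BeadChips had the lower value with E2 there, by an average of −0.28 ± 0.24, which was not called. The remaining groups gave 0.16 ± 0.22 in trabecular AF-1 KO and 0.07 ± 0.24 in cortical WT.

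Bcl2l11 encodes BIM, the BH3-only protein that binds Bcl2. In trabecular WT it was 9.07, 9.19, 9.12, 9.12 and 9.40 with E2, against 9.28, 9.57, 9.22, 9.35 and 9.81 with vehicle. All 5 BeadChips had the lower value with E2, but the groups overlapped and the difference of −0.26 ± 0.15 was not called (adjusted p = 0.776, limma). Its levels in cortical AF-1 KO were 8.25, 8.95, 9.02, 8.95 and 9.01 with E2, against 9.58, 9.28, 8.69, 8.77 and 9.41 with vehicle. The other differences were 0.01 ± 0.15 in trabecular AF-1 KO, −0.31 ± 0.22 in cortical AF-1 KO and 0.02 ± 0.22 in cortical WT. The cortical AF-1 KO value was −0.053 without BeadChip 1, whose E2 array stood at 8.25, and the second probe, detected on 34 arrays, went the other way there (0.52 ± 0.30). It gave −0.21 ± 0.30 in cortical WT, 0.04 ± 0.26 in trabecular AF-1 KO and −0.12 ± 0.26 in trabecular WT.

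Bcl2, the guardian that BIM opposes, was 8.73, 8.27, 8.32, 8.40 and 8.02 with E2 in trabecular AF-1 KO, against 8.33, 8.29, 8.27, 7.86 and 7.36 with vehicle. In cortical WT it was 8.78, 8.70, 8.92, 8.84 and 9.27 with E2, against 8.78, 8.79, 8.80, 8.91 and 8.17 with vehicle. Both pairs of groups overlapped. Its E2 differences were 0.33 ± 0.22 in trabecular AF-1 KO, −0.17 ± 0.22 in trabecular WT, 0.23 ± 0.20 in cortical AF-1 KO and 0.21 ± 0.20 in cortical WT. None was called. Its second probe, also detected on 34 arrays, gave −0.06 ± 0.45, 0.01 ± 0.45, −0.15 ± 0.29 and 0.03 ± 0.29 in the same order, with the opposite sign in 3 of the 4. In cortical bone the gap of the brighter probe was widest on BeadChip 5, where the E2 array lay above its vehicle partner by 1.11 in AF-1 KO and 1.09 in WT, while on the other 4 BeadChips they differed by −0.09 to 0.13.

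**Figure D3:**
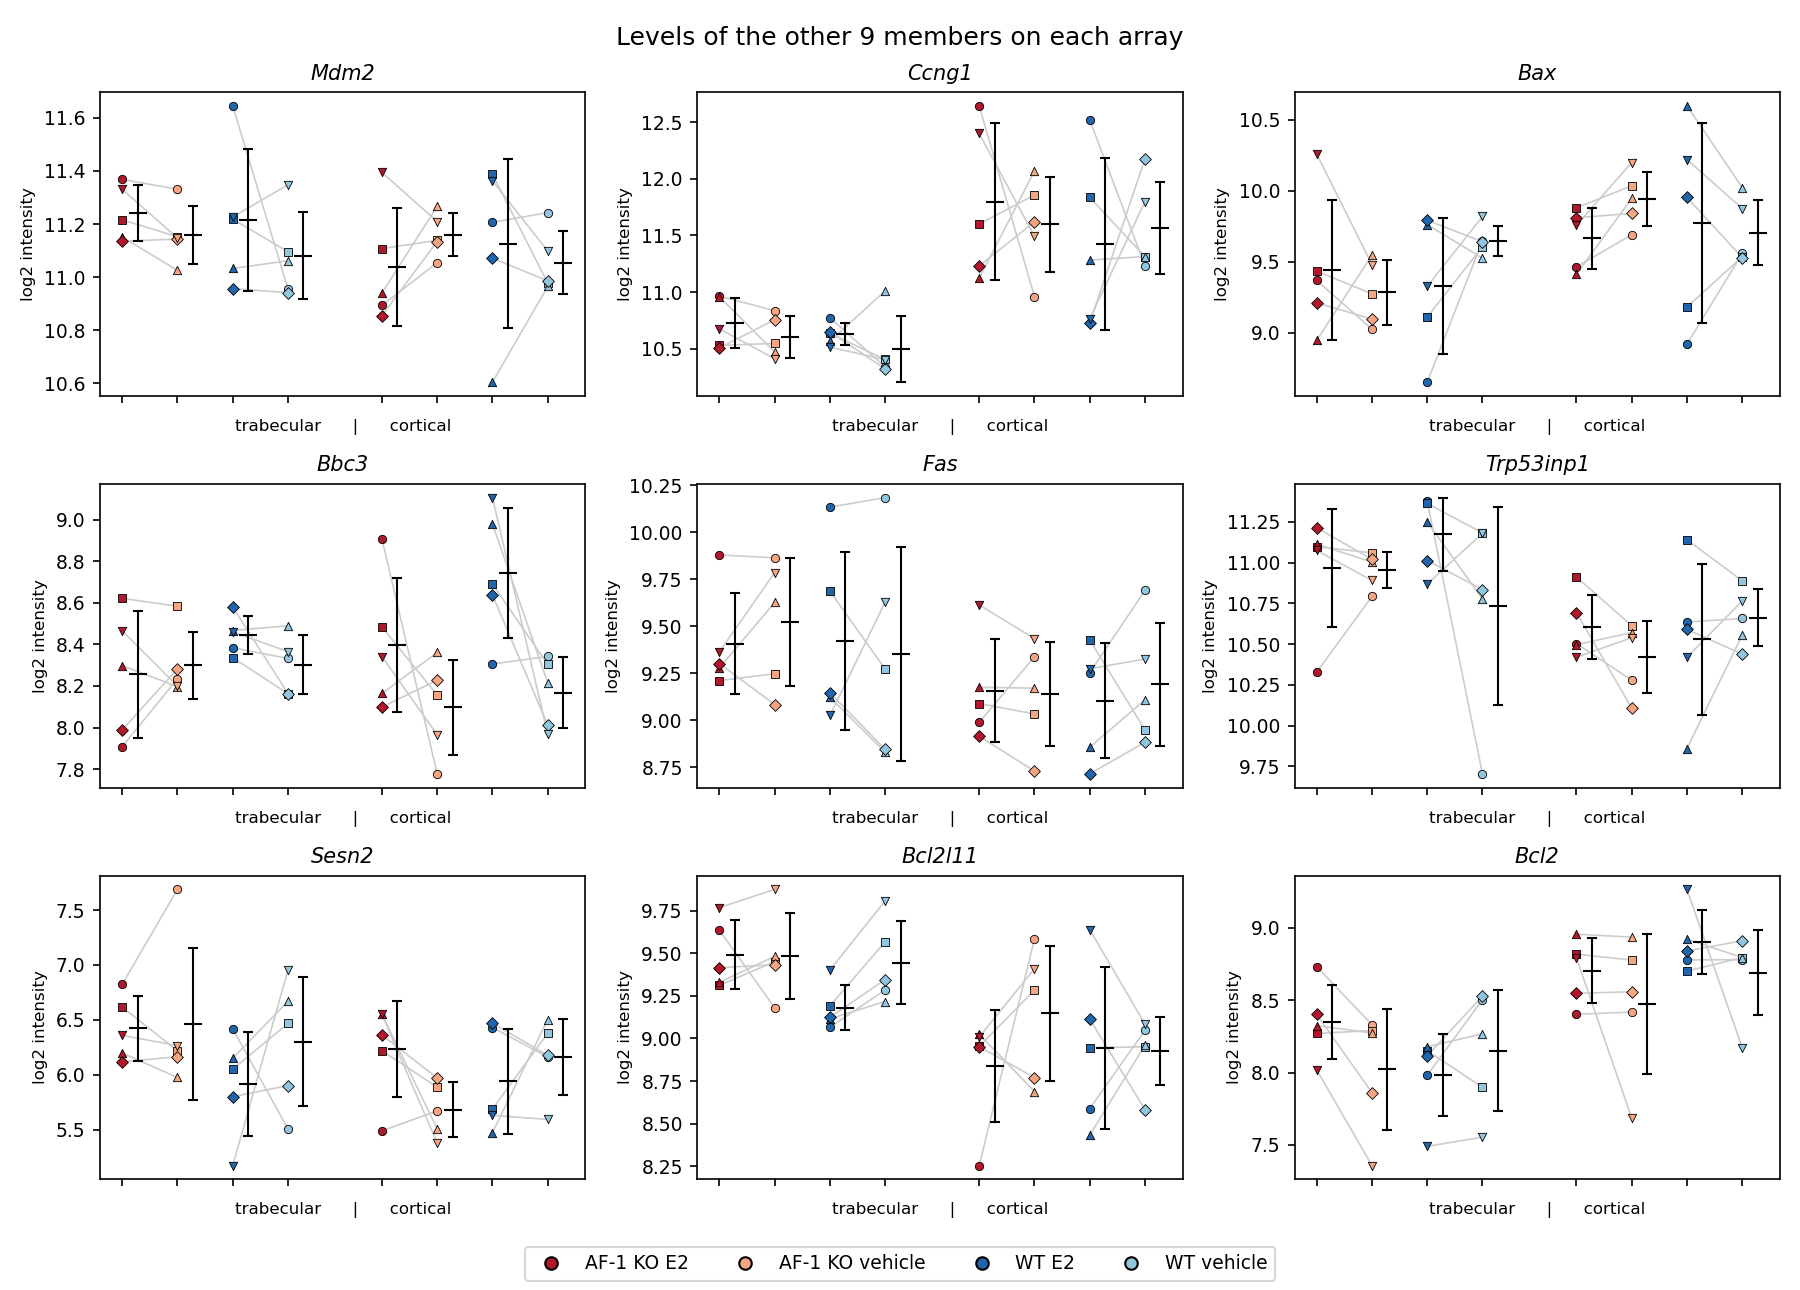
Levels (log2 normalized intensity) of the other 9 members on each array, one panel a gene, with its own vertical scale. Groups run from left to right as AF-1 KO E2, AF-1 KO vehicle, WT E2 and WT vehicle, first in trabecular and then in cortical bone. Symbols mark BeadChips 1 to 5 (circle, square, triangle up, diamond, triangle down), grey lines join arrays of a BeadChip, and bars are mean ± SD. Mdm2 is shown by the probe used in trabecular bone. The E2 and vehicle arrays of each bone and genotype overlap in every panel.

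Fas, the death receptor, had no called E2 difference. By its brightest probe the differences were −0.11 ± 0.26 in trabecular AF-1 KO, 0.07 ± 0.26 in trabecular WT, 0.02 ± 0.19 in cortical AF-1 KO and −0.09 ± 0.19 in cortical WT. In trabecular AF-1 KO its levels were 9.88, 9.21, 9.28, 9.30 and 9.36 with E2, against 9.86, 9.25, 9.63, 9.08 and 9.79 with vehicle, and in trabecular WT 10.13, 9.69, 9.12, 9.15 and 9.03 with E2, against 10.18, 9.27, 8.83, 8.84 and 9.63 with vehicle. The array of BeadChip 1 was the highest in each of these 4 groups. The 20 cortical arrays ran from 8.71 to 9.69. The second Fas probe, detected on 32 arrays, gave 0.50 ± 0.28 in cortical AF-1 KO and 0.23 ± 0.26 in trabecular AF-1 KO, neither called. Trp53inp1, a nuclear protein that p53 induces and that also acts in autophagy, was 11.38, 11.36, 11.25, 11.01 and 10.87 with E2 in trabecular WT, against 9.70, 11.18, 10.78, 10.83 and 11.18 with vehicle. The low vehicle array was that of BeadChip 1. The difference was 0.44 ± 0.23 with it and 0.13 without BeadChip 1, and 0.01 ± 0.23 in trabecular AF-1 KO. In cortical bone it was 0.18 ± 0.19 in AF-1 KO and −0.13 ± 0.19 in WT. The second probe, also detected on all arrays, gave −0.53 ± 0.26 in trabecular AF-1 KO and 0.016 ± 0.26 in trabecular WT, so no direction is given for Trp53inp1.

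Sesn2, a stress-induced inhibitor of mTORC1 signalling, was near the detection limit, with 9 of 40 arrays above background, 3 of them trabecular and 6 cortical. Within a bone it was tested in cortical bone alone, and its trabecular arrays entered only the fits of both bones. In cortical AF-1 KO it was 5.49, 6.22, 6.55, 6.36 and 6.55 with E2, of which 2 arrays were detected, against 5.67, 5.89, 5.51, 5.97 and 5.38 with vehicle, of which 0 were detected. The means were 6.24 ± 0.44 with E2 and 5.68 ± 0.25 with vehicle (SD, n = 5 each), not called (adjusted p = 0.999, limma), and no fold is given because the vehicle arrays were not above background. In cortical WT 2 of 5 arrays were detected in each group, and no difference is given. The second Sesn2 probe was detected on 0 arrays.

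Whether the deletion of AF-1 altered the E2 effect was tested as the difference between the genotypes' E2 differences. For trabecular bone 0 of 9 members were called, as was 1 of 8693 genes (0.0115%), and for cortical bone 0 of 10, with 0% of 9096 genes called and 212 at an unadjusted p under 0.05. Cdkn1a had a smaller E2 difference in AF-1 KO than in WT by −0.27 ± 0.29 in trabecular (95% interval −0.88 to 0.34) and by −0.29 ± 0.42 in cortical bone (interval −1.15 to 0.58), and both intervals cover 0. For Cdkn1a, leaving arrays out gave −0.41 (BeadChip 5) to −0.08 (the AF-1 KO vehicle array of BeadChip 1) in trabecular bone. In cortical bone it gave −0.56 to −0.07, without the AF-1 KO E2 array of BeadChip 5 and of BeadChip 4. In trabecular bone the largest values were those of Bcl2 (0.49 ± 0.31), Bax (0.48 ± 0.32) and Trp53inp1 (−0.43 ± 0.32), each with an adjusted p of 0.997 (limma), and without BeadChip 1 they were 0.39, 0.26 and 0.0015. For Bbc3 it was −0.19 ± 0.20 in trabecular and −0.27 ± 0.25 in cortical bone, or −0.63 in cortical bone without BeadChip 1 (unadjusted p = 0.00963, not called by limma). That an E2 effect has an interval above 0 in WT and one that covers 0 in AF-1 KO is therefore not shown to be a difference between the genotypes.

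Without E2, no member passed the test between the genotypes. AF-1 KO minus WT with vehicle had 0 of 9 members called in trabecular bone and 0 of 10 in cortical bone. Across all genes the calls were 0% of 8693 and 0% of 9096, with 371 and 256 genes at an unadjusted p under 0.05. The members' differences ran from −0.36 for Bax in trabecular bone to 0.24 for Bax in cortical bone, leaving out Sesn2, which was not above background in cortical AF-1 KO with vehicle, and the lowest adjusted p was 0.942 (limma). For Cdkn1a the difference was 0.04 ± 0.21 in trabecular and −0.10 ± 0.29 in cortical bone.

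The E2 effect was also compared between the bones. Trabecular minus cortical, 0 of 10 members were called in AF-1 KO, where 0% of 9451 genes passed and 202 had an unadjusted p under 0.05, and 0 of 10 in WT, where 1 gene passed (0.0106%). Cdkn1a had −0.17 ± 0.37 in AF-1 KO (95% interval −0.91 to 0.58) and −0.19 ± 0.37 in WT (−0.93 to 0.56). In WT Trp53inp1 had 0.57 ± 0.30 and Bbc3 −0.43 ± 0.22, with unadjusted p of 0.0634 and 0.0573 and neither called by limma. Without BeadChip 1 they were 0.29 and −0.56, while Ccng1, at 0.27 with all arrays, was 0.55, so no order among the members is given.

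The bones themselves differed in 3 members by the test in WT mice given vehicle. Cdkn1a and Ccng1 were lower in trabecular bone, and Bcl2l11 was higher. Whether the p53 sites in the windows of Cdkn1a and Ccng1 have a part in this was not tested. Against this stands a wide difference between the bones, with 1950 of 9451 genes called (20.6%), 852 higher and 1098 lower in trabecular bone. The share of all genes whose arrays did not overlap between the bones is not given here. With each array scaled to its median in place of quantile normalization, 56 were higher and 686 lower, and the median over all genes moved by −0.105.

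Cdkn1a had 9.53, 9.13, 9.37, 9.06 and 9.93 in trabecular WT with vehicle, against 10.62, 10.55, 10.62, 10.88 and 11.37 in cortical WT with vehicle. The groups did not overlap, and neither did all 20 trabecular arrays (8.96 to 10.28) and all 20 cortical arrays (10.41 to 12.39) of any genotype and treatment. The difference was −1.41 ± 0.26 (adjusted p = 0.000153, limma) and was called in 29 of 29 alternatives, from −1.54 to −1.21. Its other probes gave −1.08 ± 0.33 and −1.06 ± 0.37, both called over all probes.

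Ccng1 had 10.34, 10.40, 11.01, 10.32 and 10.40 in trabecular WT with vehicle, against 11.23, 11.31, 11.31, 12.18 and 11.80 in cortical WT with vehicle. Every trabecular array lay below every cortical one, and the difference was −1.07 ± 0.27 (adjusted p = 0.00458, limma). The call was lost with median scaling (−1.17, adjusted p = 0.0604, limma) and without BeadChip 4 (−0.87, adjusted p = 0.0668, limma), and kept in the other 27 of 29 alternatives. Its other probes gave −0.87 ± 0.33 and −0.49 ± 0.28, neither called.

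Bcl2l11 had 9.28, 9.57, 9.22, 9.35 and 9.81 in trabecular WT with vehicle, against 9.05, 8.95, 8.96, 8.58 and 9.08 in cortical WT with vehicle. The groups did not overlap, with a difference of 0.52 ± 0.19 (adjusted p = 0.0487, limma). The call is marginal: it held in 14 of 29 alternatives, where the adjusted p ran from 0.00256 to 0.720. It was lost without BeadChip 2, 3, 4 or 5, with adjusted p of 0.172, 0.0583, 0.220 and 0.0971 (limma), and with median scaling (0.39, adjusted p = 0.720, limma). The second probe, whose row carries no transcript description, gave 0.19 ± 0.29. Bcl2 was lower in trabecular bone on 5 of 5 BeadChips, by −0.54 ± 0.21, and missed the threshold (adjusted p = 0.0666, limma). With the BeadChip as a block it passed (adjusted p = 0.0281, limma), and its second probe, for transcript variant 2, gave −1.08 ± 0.39 (adjusted p = 0.0499 over all probes, limma).

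**Figure D4:**
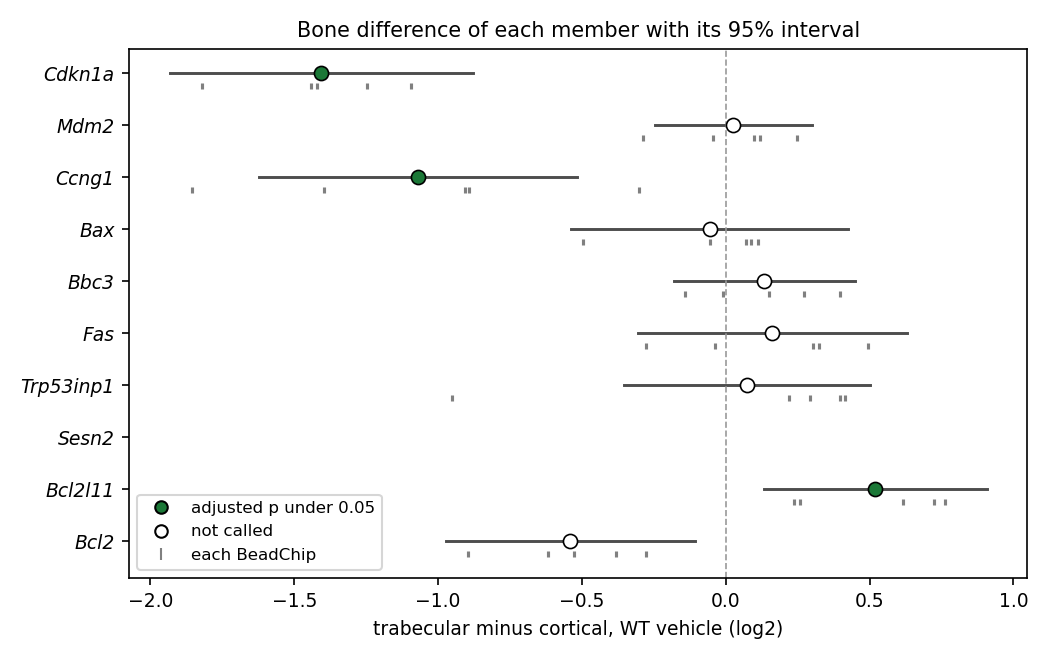
Trabecular minus cortical difference (log2) of each member in WT mice given vehicle, with the 95% interval of the limma fit and ticks for the 5 BeadChips. Filled points have an adjusted p under 0.05. Cdkn1a (−1.41) and Ccng1 (−1.07) lie left of 0 and Bcl2l11 (0.52) right of it on all 5 BeadChips, and the interval of Bcl2 (−0.54) also lies below 0. Sesn2 is not drawn because it was near background.

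Of the other members, Sesn2 was detected on 2 arrays of each group and is given no difference, and the brightest probes of the remaining 5 differed by −0.06 to 0.16. Mdm2 had 0.03 ± 0.13 by its brightest probe and −0.51 ± 0.22 by the other detected probe, so its probes disagree and no direction is given. Bax had −0.06 ± 0.24, Bbc3 0.13 ± 0.16, Fas 0.16 ± 0.23 and Trp53inp1 0.07 ± 0.21. The second probes gave −0.20 ± 0.28 for Fas and 0.51 ± 0.31 for Trp53inp1, neither called. Marker genes of several cell types also differed between the bones. All 9 skeletal muscle markers were called lower in trabecular bone (median −2.19), as were 5 of 5 osteocyte markers (median −2.0), 5 of 7 osteoblast markers (median −0.81) and 3 of 4 adipocyte markers (median −1.06). Within trabecular bone 3 osteocyte, 2 adipocyte and 4 cartilage markers were detected on enough arrays to be tested, against 5, 4 and 2 within cortical bone. Markers that entered through 1 bone alone had their direction set by that, and their sizes depend on the background. Of the T and NK cell markers 5 of 7 and of the erythroid markers 4 of 8 were called higher there, with medians of 0.78 and 0.47. Of the endothelial markers 2 of 5 were called lower, of the B lineage markers 1 of 7 and of the cartilage markers 1 of 4 higher, and of 4 osteoclast and 8 neutrophil markers 0 were called. The mean level of the muscle markers ran from 10.55 to 11.71 in trabecular WT with vehicle and from 12.90 to 14.20 in cortical WT with vehicle, and that of the osteocyte markers from 7.13 to 7.38 and from 8.38 to 9.46. Their part in the differences of Cdkn1a, Ccng1, Bcl2l11 and Bcl2 was not tested.

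The order of the Cdkn1a levels over the 8 groups placed the 4 cortical groups first. It ran from cortical WT with E2 (11.68 ± 0.50) and cortical AF-1 KO with E2 (11.29 ± 0.75) through cortical WT with vehicle (10.81 ± 0.34) and cortical AF-1 KO with vehicle (10.71 ± 0.22) to trabecular WT with E2 (10.09 ± 0.15), trabecular AF-1 KO with E2 (9.86 ± 0.23), trabecular AF-1 KO with vehicle (9.44 ± 0.49) and trabecular WT with vehicle (9.40 ± 0.35; SD, n = 5 each). Of the 7 neighbouring pairs in this order, 6 overlapped, and the exception was the step between the bones. For each of the other 9 members all 7 neighbouring pairs overlapped. How many of all genes have such a step is not given here, and 20.6% of genes were called between the bones in WT with vehicle. From highest to lowest group mean, Cdkn1a spanned 2.27, Ccng1 1.30, Bcl2 0.92 and Mdm2 0.20.

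The wider pathway was read from 5 lists with 103 genes. Among p53 targets 0 of 31 tested were called in each of the 4 E2 comparisons within a bone. Their median E2 difference was −0.01 in trabecular AF-1 KO, 0.07 in trabecular WT, 0.02 in cortical AF-1 KO and −0.02 in cortical WT, close to the medians over all genes. Averaged over bones and genotypes, 1 of 33 targets was called, which is Cdkn1a itself. The targets nearest to it were the death receptor Tnfrsf10b (0.46 ± 0.15, adjusted p = 0.213, limma) and the DNA damage recognition gene Xpc (−0.34 ± 0.12, adjusted p = 0.325, limma). Tnfrsf10b was detected on too few cortical arrays to be tested within that bone, so the cortical part of its average is near background.

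Of p53 and its regulators 0 of 12 in trabecular and 0 of 11 in cortical bone were called with E2. Trp53 itself had −0.21 ± 0.20 in trabecular AF-1 KO, −0.41 ± 0.20 in trabecular WT (unadjusted p = 0.0533), 0.12 ± 0.19 in cortical AF-1 KO and 0.04 ± 0.19 in cortical WT. The p53 kinase gene Hipk2 had 0.08 ± 0.15 in trabecular AF-1 KO, −0.28 ± 0.15 in trabecular WT and −0.29 ± 0.17 in cortical bone of each genotype. Of the BCL2 family 0 of 13 and 0 of 14 were called. Bcl2l1, which encodes the survival protein BCL-XL, had 0.40 ± 0.22 in trabecular AF-1 KO, 0.45 ± 0.22 in trabecular WT, 0.47 ± 0.19 in cortical AF-1 KO and 0.17 ± 0.19 in cortical WT, and its average over all groups was 0.37 ± 0.10 (unadjusted p = 0.000881, adjusted p = 0.121, limma). Bak1, the pore-forming relative of Bax, had −0.73 ± 0.24 in cortical AF-1 KO and −0.10 ± 0.24 in cortical WT, and the BH3-only gene Bmf −0.12 ± 0.15 in cortical AF-1 KO and −0.45 ± 0.15 in cortical WT, none called. Bid, cleaved by a caspase on the way from receptor to mitochondrion, had −0.16 ± 0.24 in trabecular AF-1 KO and 0.49 ± 0.24 in trabecular WT. Of the death receptors and adaptors 0 of 7 were called in each bone, with −0.29 ± 0.38 in trabecular AF-1 KO and −0.72 ± 0.38 in trabecular WT for the adaptor Fadd, and 0.53 ± 0.23 and 0.24 ± 0.23 in the same order for Tnfrsf10b. Of the caspases and apoptosome genes 0 of 14 and 0 of 15 were called. The median E2 differences of these 4 lists lay between −0.12 and 0.11 in all 4 comparisons.

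Between the bones these lists held called genes in both directions, named here because they passed and after their values were seen. Of 33 p53 targets 3 were higher and 6 lower in trabecular WT bone with vehicle, beside 20.6% of all genes. Pidd1 (1.19 ± 0.25), Tnfrsf10b (1.24 ± 0.29) and Tap1 (0.74 ± 0.19) were higher, while Phlda3 (−1.52 ± 0.36), Plk2 (−0.98 ± 0.32), Tob1 (−0.89 ± 0.27), Ei24 (−0.45 ± 0.16), Cdkn1a and Ccng1 were lower. Of p53 and its regulators 3 of 12 were higher, Trp53 (0.83 ± 0.19), the checkpoint kinase gene Chek2 (0.76 ± 0.21) and Hipk2 (0.42 ± 0.15). Of the BCL2 family 3 of 14 were higher, Bcl2l1 (0.61 ± 0.21), Bcl2l13 (0.42 ± 0.15) and Bcl2l11. Of 8 death receptors and adaptors 1 was higher, Tnfrsf10b, and 1 lower, the adaptor Traf2 (−1.45 ± 0.33). Tnfrsf10b was detected on too few arrays to be tested within cortical bone, and Traf2 within trabecular bone. Each entered this comparison through the bone where it is higher, so its direction is no separate result. The sizes depend on the background: without background correction they were 0.46 for Tnfrsf10b and −0.55 for Traf2. Of 15 caspases and apoptosome genes 1 was called, Birc5 (survivin), which is made in dividing cells and was higher (0.61 ± 0.17). With median scaling all 17 of these genes kept their sign and 5 were called, Cdkn1a, Tnfrsf10b, Phlda3, Tob1 and Traf2.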

How the data were processed

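RNA from trabecular and cortical mouse bone was measured on 40 single-colour Illumina arrays, 5 in each of 8 groups, and groups were taken from the labels of each sample. The deposited table used here holds the raw summary intensity and the detection p-value of 25697 probes per array, per the file headers, and GenomeStudio is named without a version in the submitters' processing notes. The authors' deposited processed intensity values, which rank each array's probes as the raw ones do (lowest rank correlation 1), served as an alternative. They gave nearly the same bone differences as the alternative without background correction (−1.21 for Cdkn1a in each). These alternatives are therefore not separate checks, although the counts of alternatives include both. The intensities were run through neqc of limma (normexp background correction with an offset of 16, quantile normalization, log2), where the negative controls were inferred from the detection p-values. Quantile normalization sets all arrays to one distribution, so a change shared by most genes would not be seen. Symbols were updated through a RefSeq table, of which 20733 probes were current, 3903 matched a synonym and 1061 kept the file's name. Probes with a detection p under 0.01 on at least 5 arrays of a fit were kept, the brightest probe stood for its gene, and groups were compared with lmFit and eBayes (R 4.3.3, limma 3.58.1, statmod 1.5.0) over the 20 arrays of a bone, or all 40 between bones. Benjamini-Hochberg adjustment ran over all genes. The code was tested on simulated data. The number of arrays limits the precision.

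The 10 genes, the 5 pathway lists (103 genes) and the 11 marker lists were chosen with earlier results of these data known. Genes outside the 10 are named when called, or as at most 2 per list and comparison with the smallest p. The replicate number in the labels is that of the BeadChip, which holds 1 array of each group. Same-numbered arrays of a bone deviated together weakly on average, but single pairs varied widely. The residual correlation averaged 0.125 in trabecular and 0.0751 in cortical bone over 30 pairs each, against −0.0291 and −0.0185 for other pairs. Single pairs ran from −0.0589 to 0.386 in trabecular and from −0.578 to 0.634 in cortical bone, with 12 and 14 pairs over 0.1. The planned fit has no block, and the block is an alternative. Planned fits of both bones thus took the 40 arrays as independent, although the labels do not say whether a mouse gave both bones. Other alternatives were the background correction, offset, scaling, probe filter, probe choice, empirical Bayes options, array weights, arrays in the fit, thresholds, and each BeadChip or array left out.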

Additional observations from a re-analysis of the deposited data

Results flagged for a closer look

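In each of 80 groups of 5 arrays (10 genes, 8 groups), the highest or lowest array was set against its nearest neighbour, and 10 groups had a gap above Dixon's critical value of 0.71 of the group's range. Chance gives about 5% of groups. Of the 10 arrays, 5 were on BeadChip 1, whose trabecular arrays detected the fewest probes.

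On BeadChip 1, Fas stood high in trabecular AF-1 KO with E2 at 9.88, where the nearest array was 9.36. Trp53inp1 stood low at 10.33 in trabecular AF-1 KO with E2 (nearest 11.07) and at 9.70 in trabecular WT with vehicle (nearest 10.78). Sesn2 stood high at 7.69 in trabecular AF-1 KO with vehicle (nearest 6.27), an array on which it was not detected. Bcl2l11 stood low at 8.25 in cortical AF-1 KO with E2 (nearest 8.95).

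On the other BeadChips, Bbc3 stood high at 8.58 in trabecular AF-1 KO with vehicle (BeadChip 2, nearest 8.28). Ccng1 stood high at 11.01 in trabecular WT with vehicle (BeadChip 3, nearest 10.40). Bcl2l11 stood low at 8.58 in cortical WT with vehicle (BeadChip 4, nearest 8.95). Bcl2 stood low on BeadChip 5, at 7.49 in trabecular WT with E2 (nearest 7.98) and at 8.17 in cortical WT with vehicle (nearest 8.78).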

How the results depend on the processing

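Of 116 results for single members, 0 changed sign among those called or with an unadjusted p under 0.05. Of 112 that were not called, 61 kept their sign under every alternative, and over all 112 the sign changed in 228 of 3958 alternatives. The thresholds and the empirical Bayes options among these alternatives cannot change a sign. Of these 112, 2 passed under some alternative: Cdkn1a with E2 in trabecular WT and Bcl2 between the bones. The BeadChip as a replicate block changed the call of Bcl2 between the bones and of no other member. Counts of genes called moved more. For E2 in trabecular WT (18 genes; 16 with the block) they were 4 with median scaling, 47 with array weights, 41 with the block and without BeadChip 1, and 10 and 29 at thresholds of 0.01 and 0.1. For E2 in trabecular AF-1 KO (1) requiring detection on all arrays gave 0. For E2 in cortical WT (13; 19 with the block) it was 5 with detection required on all arrays, 31 with 40 arrays, 4 with only the groups compared, 6 with the block and without BeadChip 1, and 5 at 0.01. For E2 in cortical AF-1 KO (0) it was 2 with median scaling, 48 with array weights, and 1 with 40 arrays, with only the groups compared and at 0.1. For the genotype difference of the E2 effect in trabecular bone (1) it was 5 with array weights, 2 with 40 arrays, and 0 without background correction, with the authors' values, with detection required on all arrays, with trend and robust options, with the block and without BeadChip 1, and at 0.01. In cortical bone (0) it was 1 with median scaling, with array weights and with 40 arrays. For the bone difference of the E2 effect in WT (1) it was 0 under those 6 settings and with median scaling, array weights or only the groups compared. Between the bones in WT with vehicle (1950; 2316 with the block) it was 742 with median scaling, 3253 with the block and without BeadChip 1, and 1019 at 0.01. For the mean E2 effect (44; 55 with the block) it was 25 with median scaling, 27 with detection required on all arrays, 182 with array weights, 68 with the block and without BeadChip 1, and 27 at 0.01.

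With BeadChips or single arrays left out, counts ran from 6 to 29 for E2 in trabecular WT, 1 to 1 in trabecular AF-1 KO, 2 to 12 in cortical WT and 0 to 2 in cortical AF-1 KO. They ran from 0 to 2 and 0 to 1 for the genotype difference of the E2 effect in trabecular and cortical bone, 0 to 1 and 0 to 0 for AF-1 KO against WT with vehicle, 0 to 1 in WT and 0 to 0 in AF-1 KO for the bone difference of the E2 effect, 867 to 2647 between the bones and 18 to 54 for the mean. The cause of these moves was not tested, except that a stricter threshold leaves fewer calls by construction. Arrays give no molecule counts, and Sesn2 lies too near background for a fold.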
